A study of Mus musculus with 2 samples.

Results

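The early round spermatids described here were the 1425 of 12768 cell barcodes in which a set of 3 genes, Fam24a, Prss46 and BC061237, outscored 9 other sets of germ cell stage genes. They were chosen by expression: barcodes with fewer than 2 of 10 genes of somatic cells, spermatogonia and early spermatocytes detected were kept (9669 of 12768), each set gene was converted to a z-score of the natural log of 1 plus UMIs (unique molecular identifiers, one per captured mRNA molecule) per 10000, the z-scores were averaged per set over the 10 sets A to J, and the barcode went to its highest set. The sets run from pachytene spermatocytes (A) to condensing spermatids (J), so set B (Pabpc6, Nutm2, Ccna1) sits before the early round spermatids, which are set C, and set D (Acrv1, Spaca1, Lyzl1) after them.

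The study profiled testis cells of 12-week-old C57BL/6 mice by single-cell RNA sequencing on a microfluidic chip. It made 1 library from WT mice and 1 from mice with a homozygous loss of Alkbh5 in the whole body (Alkbh5-/-, KO). Alkbh5 encodes a demethylase that removes N6-methyladenosine (m6A) from RNA. The sources used here differ on whether 1 mouse or 3 mice of each genotype were taken, and the labels name no animal, so each library was treated as 1 sample. With 1 library per genotype no difference between the genotypes could be tested, and the 95% intervals printed beside values cover counting error only.

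Round spermatids are the haploid cells that leave the second meiotic division. In them the acrosome forms from the Golgi apparatus over the nucleus, the flagellum grows out, and a wave of transcription driven by factors such as CREM fills the cell with mRNA that is stored for later translation, before protamines replace the histones and the nucleus condenses. The sex chromosomes, which are silenced in pachytene spermatocytes, keep much of that silencing after meiosis, while a group of X- and Y-linked genes is transcribed again in round spermatids; each spermatid carries an X or a Y, and mRNA passes between sister cells through cytoplasmic bridges.

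The WT library held 727 early round spermatids and the KO library 698. This was 12.6% of the 5756 WT barcodes (11.8% to 13.5%, exact Clopper-Pearson interval) and 9.95% of the 7012 KO barcodes (9.26% to 10.7%). Among barcodes that passed the filter they made up 13.5% of the WT library (12.6% to 14.4%) and 16.3% of the KO library (15.2% to 17.5%), so the order of the genotypes turned with the denominator. The filter removed many more barcodes in KO, where 1196 barcodes held UMIs of both Leydig cell genes Insl3 and Cyp17a1, against 96 in WT. The members had a median of 12266 UMIs in WT and 11409 in KO, and their summed UMIs were 11505899 and 10163880. Scrublet called 29 WT and 30 KO members doublets (3.99% and 4.30%). Of the 45 cell barcodes found in both libraries, 7 were members in WT and 3 in KO, and 0 were members in both. Alkbh5 itself had 98 UMIs in the WT members (79.6 to 119, exact Poisson interval) and 0 in the KO members, where a limit of 3 counts over the group makes it at least 28.9-fold lower.

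Genes of both neighbouring stages were present in the cells. The next highest set was D in 518 WT members (71.3%) and 464 KO members (66.5%), and B in 188 (25.9%) and 223 (32.0%). Set C led the next set by a median of 0.43 in WT and 0.46 in KO, and by less than 0.1 in 91 WT members (12.5%) and 75 KO members (10.7%). The class is cut from scores, so these values describe the rule. The members closest to the cut led by 0.00044 in WT and 0.000215 in KO, and the nearest barcodes outside it had set C scores that differed from the winning set by -0.0014 and -3.921e-06. The meiotic genes Pabpc6, a testis poly(A) binding protein, and Ccna1, the male germ cell cyclin A1, stood at 370 and 202 CPM (summed UMIs of the members scaled to 1000000) in WT, and at 1535 and 483 CPM in set B. Acrv1, an acrosomal vesicle protein, stood at 633 CPM in the members and 990 CPM in set D. These 3 genes and Tnp2, a set H gene, are among those that sorted the cells, so their levels follow from the rule. Tnp2, a transition protein of condensing nuclei, stood at 468 CPM in the WT members and 21405 CPM in set G.

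Since the 3 set C genes chose the cells, their levels are a description. Fam24a, at chr7:131333864-131336927 on the plus strand (GRCm38), had 1057 CPM in WT and 882 CPM in KO, a log2 ratio of KO to WT of -0.26. Prss46, a testis serine protease gene at chr9:110844506-110856522, had 567 and 495.5 CPM, a log2 ratio of -0.19. BC061237, an uncharacterised gene at chr14:44492463-44506345, went the other way, with 836 CPM in WT and 1120 CPM in KO, a log2 ratio of 0.42. Each was detected in nearly every member: 100% and 99.7% for Fam24a, 99.6% and 99.0% for Prss46, and 99.9% in both libraries for BC061237. With each cell thinned to 5000 UMIs, which left out 10 KO members, Fam24a was seen in 98.2% of WT and 97.5% of KO members. Cells with both Leydig genes, which should lack it, showed it in 13.5% and 7.70% at the same depth (15.6% and 9.53% unthinned, at median depths of 10165.5 and 8106 UMIs), far under the share in the members.

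**Figure D1:**
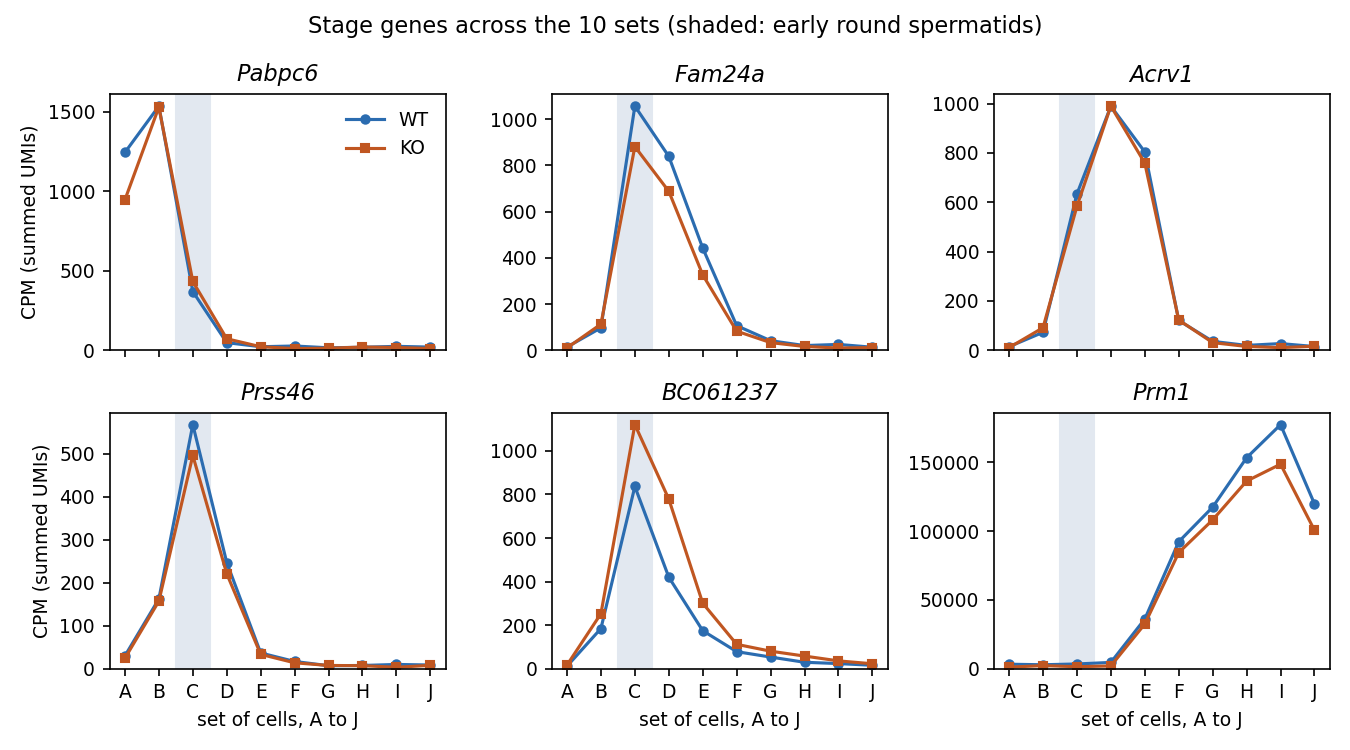
Level of 6 stage genes, in CPM of the summed UMIs, across the 10 sets of cells from A to J in the WT (circles) and KO (squares) libraries, with the early round spermatids (set C) shaded. All but Prm1 are genes that the sets were scored on. Pabpc6 falls from 1535 to 370 CPM between sets B and C in WT, Acrv1 rises from 633 to 990 CPM between C and D, and Prm1 goes from 3532 CPM in C to 117403 CPM in G.

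The genes that stood out most in the early round spermatids against the other 9 sets were led by an X-linked family. Ssxb1, Ssxb2 and Ssxb6, X-linked members of the SSX family of testis genes, were the 3 leading genes by the lower of the 2 libraries' log2 ratios over the mean of the other sets. Ssxb1 had 77.9 CPM in the WT members, 20.5 CPM in set B and 7.71 CPM in set D; in KO it had 116 CPM in the members, 32.6 in B and 14.6 in D. All 3 are near copies of each other, so reads may be split between them. The other leading genes included Smco4, a membrane protein gene (271 CPM in WT and 217 in KO), Tmem243, another membrane protein gene (173 and 153 CPM), Zfp819, a zinc finger gene (32.2 and 43.0 CPM), the lincRNA 4930518J21Rik (83.87 and 74.97 CPM) and 1700001F09Rik (639 and 894 CPM). By number of UMIs the first gene was CT010467.1, a ribosomal RNA gene (36324 and 33637 CPM). It was followed by genes shared with the neighbouring stages: Ldhc, the testis lactate dehydrogenase, at 7058 and 7256 CPM, and Meig1, which carries cargo along the manchette, at 6517 and 6489 CPM.

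Promoter windows of some set C and leading genes are printed to show the sequence around the RefSeq start of genes that peak at this stage. Each runs from 250 bases before to 50 bases after the RefSeq start (GRCm38.p6), in the direction of transcription, with the letters TGACG or their reverse complement in capitals. TGACG is the start of the cAMP response element TGACGTCA, which CREM is known to bind, and every full element holds it. Of the 15 leading genes 11 had windows in the table; 0 of 11 held the full element on either strand, and 3 of 11 held the shorter motif (4930518J21Rik, Tmem243 and Zfp819). Over all 32851 windows of that length 1.79% held the full element and 20.8% the shorter one. A leading gene was counted if any of its windows held the motif, whereas these shares are of single windows. Fam24a at chr7:131334372-131334671 (plus strand) and Prss46 at chr9:110844256-110844555 (plus strand) held neither, and Tmem243 at chr5:9100487-9100786 and Zfp819 at chr7:43606919-43607218 (both plus strand) held 1 short match each. The Fam24a window lies inside the GENCODE span given above for that gene, past its start there. BC061237, the other set C gene, had no window.
Fam24a: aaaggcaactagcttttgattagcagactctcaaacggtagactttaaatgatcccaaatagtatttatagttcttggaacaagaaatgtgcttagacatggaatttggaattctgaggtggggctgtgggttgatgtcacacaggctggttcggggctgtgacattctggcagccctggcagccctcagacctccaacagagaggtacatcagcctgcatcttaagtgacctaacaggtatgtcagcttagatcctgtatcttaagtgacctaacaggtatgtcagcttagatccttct
Prss46: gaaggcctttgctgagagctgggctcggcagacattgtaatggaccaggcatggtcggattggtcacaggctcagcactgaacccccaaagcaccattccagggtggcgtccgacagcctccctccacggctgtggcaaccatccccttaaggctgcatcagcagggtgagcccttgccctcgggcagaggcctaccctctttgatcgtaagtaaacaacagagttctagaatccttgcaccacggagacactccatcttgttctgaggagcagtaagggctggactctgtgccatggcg
Tmem243: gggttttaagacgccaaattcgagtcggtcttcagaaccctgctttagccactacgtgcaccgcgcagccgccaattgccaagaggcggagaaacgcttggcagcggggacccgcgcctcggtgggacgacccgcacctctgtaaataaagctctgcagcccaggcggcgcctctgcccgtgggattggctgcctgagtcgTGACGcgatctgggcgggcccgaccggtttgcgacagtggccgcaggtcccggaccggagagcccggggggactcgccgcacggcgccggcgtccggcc
Zfp819: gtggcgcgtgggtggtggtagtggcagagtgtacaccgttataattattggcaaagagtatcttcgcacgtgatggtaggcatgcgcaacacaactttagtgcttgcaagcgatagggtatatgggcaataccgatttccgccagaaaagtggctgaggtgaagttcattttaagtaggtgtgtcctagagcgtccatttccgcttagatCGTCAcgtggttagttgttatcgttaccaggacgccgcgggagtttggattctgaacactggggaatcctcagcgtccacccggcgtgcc

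The members were ordered along a stage axis built from the same sets. A stage position, the set D score minus the set B score, had a median of 0.60 in WT (5th to 95th percentile -0.94 to 1.72) and 0.50 in KO (-0.95 to 1.69). The KO minus WT difference in medians, -0.10, was -0.0095 with set C scored without Prss46 and -0.27 without BC061237. The members were split into 5 bins of position with common edges, holding 132 to 157 WT cells and 128 to 153 KO cells each. From the first to the last bin Pabpc6 fell from 859.5 to 74.9 CPM in WT and from 858 to 82.5 CPM in KO, but it is a set B gene and helped set the axis. Genes outside the sets also moved. Nek2, a centrosome kinase of cell division, fell from 84.8 to 7.30 CPM in WT and from 82.4 to 10.8 CPM in KO. Cd320, a receptor for the vitamin B12 carrier transcobalamin, fell from 298 to 31.5 CPM in WT and from 260 to 30.8 CPM in KO. In the other direction Tex29, a testis gene, rose from 10.9 to 316.5 CPM in WT and from 8.24 to 355 CPM in KO. Tubb6, a beta tubulin, rose from 8.38 to 227 CPM in WT and from 9.21 to 158 CPM in KO. These genes were named because they moved the same way in both libraries, and the bins were used below to compare cells of like position.

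A gene entered the comparison of genotypes if 25% or more of the WT or the KO members held its UMIs, which 5424 genes did. By a fixed size criterion 61 were higher in KO and 36 lower. The criterion asks that the natural logs of the mean UMIs per 10000, with 1 added, lie 0.25 or more apart. That is 1.12% and 0.664% of the genes tested, with a median log2 ratio over all of them of 0.00 (-0.0015) and 49.8% of them above 0. With equal weight for the 5 position bins the counts were 66 and 32. Because 1 is added before the logs, a gene of low level can miss the criterion even with a large ratio. A CPM ratio of at least 1.5 in its place gave 212 genes higher and 146 lower.

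The differences fell unevenly over the chromosomes. Of the 161 X-linked genes tested, 153 (95.03%) had a higher CPM in KO; their median log2 ratio was 0.62, and 22 passed the size criterion as higher and 0 as lower. Over the 19 autosomes the medians lay between -0.03 and 0.04, and 48.4% of the 5160 autosomal genes were higher in KO. In KO members 1.73% of all UMIs came from X-linked genes, against 1.17% in WT. The 12 Y-linked genes tested had a median of 0.35, with 10 higher in KO and 0 past the criterion, and Y-linked genes gave 0.173% of UMIs in KO and 0.143% in WT.

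**Figure D2:**
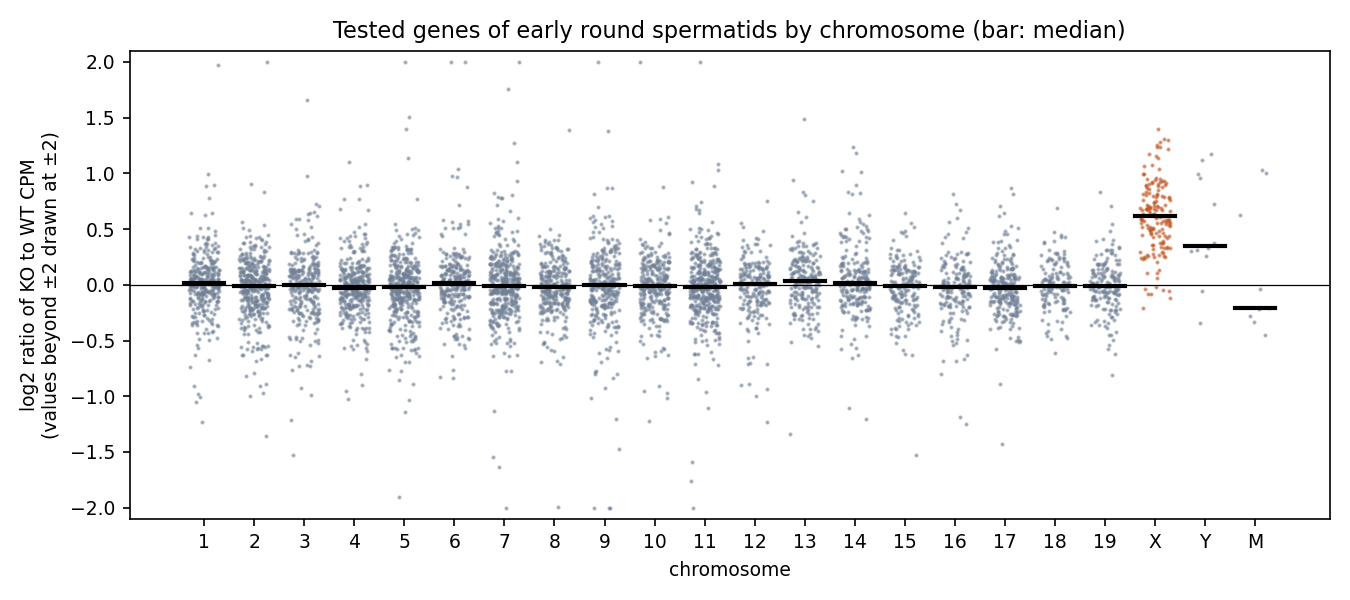
Log2 ratio of KO to WT CPM in the early round spermatids for each tested gene (points; values beyond ±2 are drawn at ±2), by chromosome, with the median of each chromosome as a black bar. The median of the 161 X-linked genes lies at 0.62, while the 19 autosomes have medians between -0.03 and 0.04.

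The 22 X-linked genes past the criterion had log2 ratios from 0.57 to 1.40. Cylc1, which encodes the cytoskeletal protein cylicin of the sperm head, went from 1409 UMIs in WT (122.5 CPM) to 2294 in KO (226 CPM), a log2 ratio of 0.88 (0.79 to 0.98). Gm595 went from 318 to 508 CPM (log2 ratio 0.68, 0.62 to 0.74). Asb9, a substrate adaptor of ubiquitin ligases, went from 101 to 179.5 CPM (0.83, 0.72 to 0.94). The lincRNA Gm14773 had the largest ratio among X-linked genes past the criterion, from 42.7 to 112 CPM (1.40, 1.24 to 1.55). Others past it were Cul4b, the scaffold of a ubiquitin ligase (0.85), Prdx4, a peroxiredoxin (0.64), Map7d3, a microtubule binding protein (0.95), and Ctag2, a cancer testis antigen gene (0.64).

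Not all X-linked genes followed. Akap4, the main protein of the fibrous sheath, had 353 CPM in WT and 334 CPM in KO, a log2 ratio of -0.08 (-0.14 to -0.01). Tsga8, the X-linked gene with most UMIs here, had 541 and 583 CPM, a log2 ratio of 0.11 (0.06 to 0.16). Ube2a, a ubiquitin conjugating enzyme that acts in spermatids, was 1 of the 8 X-linked genes below 0, with a log2 ratio of -0.09. Akap4 changed sign with the choice of cells, and had 0.38 among members with few transcripts of condensing spermatids. Of the Y-linked genes, Eif2s3y, a translation initiation factor subunit, had 94.99 CPM in WT and 122.9 CPM in KO (0.37, 0.25 to 0.49). The multicopy Gm20736 had 134 and 169 CPM (0.33), where reads may be shared among copies.

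The difference held within every bin of stage position. The median X-linked share of a cell's UMIs was 0.84%, 0.99%, 1.15%, 1.24% and 1.40% over the 5 bins in WT and 1.10%, 1.32%, 1.53%, 1.94% and 2.17% in KO, so both libraries rose toward set D and KO lay above WT throughout. The median log2 ratio of the 161 X-linked genes was 0.51, 0.52, 0.50, 0.75 and 0.82 over the same bins, with 149 to 156 of them higher in KO. The KO cells were also more spread out. The 5th to 95th percentile of the X-linked share ran from 0.62% to 1.66% in WT and from 0.67% to 3.42% in KO, and 299 of 698 KO members (42.8%) lay above the WT 95th percentile. In the last bin it ran from 1.04% to 1.85% in WT and from 0.85% to 4.58% in KO, so the lowest KO cells lay below the WT range while the highest lay far above it. Some of the highest KO cells there, such as those at 7.26% and 5.37%, had no Y-linked UMIs. Others did, such as the cell at 4.63%, with a Y-linked share of 0.212%. Whether all of them are cells of this stage was not tested.

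**Figure D3:**
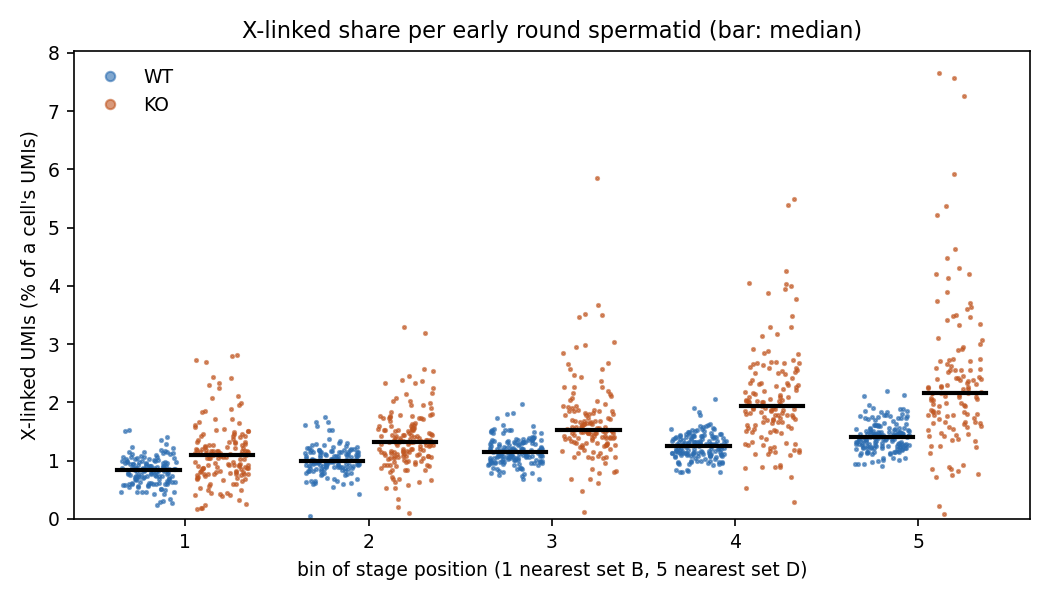
X-linked share of each early round spermatid's UMIs (points, in percent) in 5 bins of stage position, for the WT and KO libraries, with the median of each bin as a black bar. The KO medians, 1.10% to 2.17%, lie above the WT medians, 0.84% to 1.40%, in each bin, and the KO cells spread further.

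Several measures that moved with the genotype were set beside this. Among the 288 WT and 425 KO members at or under the common median share of 10 markers of condensing spermatids, 160 of the 161 X-linked genes were higher in KO, with a median of 0.60. Among the 647 WT and 339 KO members with no UMI of 10 Leydig markers the median was 0.58, and without Scrublet doublets it was 0.61, with the share of UMIs at 1.15% in WT and 1.70% in KO. Across the KO members (n = 698 cells of 1 library) the X-linked share had a Spearman correlation of 0.59 with stage position. It was 0.58 with the share of condensing spermatid markers, 0.09 with depth, 0.04 with Leydig UMIs and -0.22 with the mitochondrially encoded share. Across the WT members (n = 727) the values were 0.68, 0.66, 0.17, 0.06 and -0.45 in the same order. The shares and the stage position all use each cell's total as denominator, while depth and Leydig UMIs are plain sums. The X-linked and Y-linked shares had Spearman correlations of 0.15 in WT and 0.18 in KO over all members. Within the bins of position these lay between -0.23 and 0.05 in WT and between -0.14 and 0.04 in KO. At least 1 Y-linked UMI was found in 99.7% of WT and 98.4% of KO members.

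The KO library had the larger X-linked share in each of the 10 sets. X-linked genes gave 0.205% of UMIs in WT and 0.767% in KO in set A, 0.317% and 0.560% in set B, 1.95% and 3.44% in set D, 2.46% and 4.79% in set E, and 2.74% and 5.22% in set G. Set A held 356 WT cells with a median of 15725 UMIs and 648 KO cells with 7710.5. There the X-linked share per KO cell had quartiles of 0.057% and 2.39% and a median of 1.32%, against a WT median of 0.038%. Whether all KO cells of set A were pachytene spermatocytes was not tested. With genes of at least 50 UMIs counted in each set, the median X-linked log2 ratio was 2.17 in set A, 0.77 in set B, 0.66 in the early round spermatids, 0.86 in D and 1.06 in E; these differences between sets were not tested. In cells with both Leydig genes it was 0.17 beside an autosomal median of 0.02, and in cells with both spermatogonial genes Crabp1 and Dmrt1 it was 0.28 beside 0.05. In cells with both Sertoli cell genes Cst9 and Cldn11 (27 in WT and 488 in KO) it was 0.51 beside 0.35. The cells with both spermatogonial genes numbered 97 in WT and 573 in KO.

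One gene family lies on both the X and the autosomes, and it was singled out after its values were seen. The Cypt genes encode cysteine-rich proteins of the perinuclear theca, the layer around the sperm nucleus. X-linked Cypt1 went from 356 to 531 CPM (log2 ratio 0.57, 0.52 to 0.63), Cypt2 from 164 to 278 CPM (0.76, 0.68 to 0.85) and Cypt3 from 235 to 358 CPM (0.61, 0.54 to 0.68), and all 3 passed the size criterion. Autosomal Cypt4, on chromosome 9, went from 1291 to 1084 CPM (-0.25, -0.29 to -0.22) and Cypt12, on chromosome 3, from 463 to 368 CPM (-0.33, -0.39 to -0.27); neither passed it. In the last position bin Cypt1 had 560 CPM in WT and 912 CPM in KO, while Cypt4 had 2294 and 2171 CPM. The other 2 members with UMIs, X-linked Cypt14 (20 and 18 UMIs) and Cypt15 (36 and 121 UMIs), were seen in too few cells to enter the comparison. As the copies are alike, reads of one may have been counted to another.

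The Cypt promoters are printed because the X-linked Cypt1 to Cypt3 and the autosomal Cypt4 share the same letters just before the start. A run of 58 bases, in capitals, was identical in the windows of Cypt1 to Cypt4 and was found in 4 of the 32851 windows. Those were the windows of these 4 genes, so the run was in no window of the autosomal Cypt12. The run lay from base -87 to -30 relative to the start in Cypt1, from -91 to -34 in Cypt2 and Cypt3, and from -80 to -23 in Cypt4. Compared base by base with no shift, the windows of Cypt2 and Cypt3, where the run lies at the same place, were 70.7% identical. In the other 5 pairs the run lies at unlike places, so the bases were compared out of step. Their values, 23% to 27.7%, do not measure how alike those windows are. The windows are chrX:16522619-16522918 (Cypt1), chrX:105499522-105499821 (Cypt2), chrX:153558343-153558642 (Cypt3) and chr9:24624935-24625234 (Cypt4), all on the plus strand of GRCm38.p6.
Cypt1: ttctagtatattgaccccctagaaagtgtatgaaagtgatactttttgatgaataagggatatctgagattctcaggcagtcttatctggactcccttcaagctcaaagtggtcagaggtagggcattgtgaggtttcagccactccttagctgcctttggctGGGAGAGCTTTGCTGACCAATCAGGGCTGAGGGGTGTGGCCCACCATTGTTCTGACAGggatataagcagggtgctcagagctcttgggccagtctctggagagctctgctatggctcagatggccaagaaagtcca
Cypt2: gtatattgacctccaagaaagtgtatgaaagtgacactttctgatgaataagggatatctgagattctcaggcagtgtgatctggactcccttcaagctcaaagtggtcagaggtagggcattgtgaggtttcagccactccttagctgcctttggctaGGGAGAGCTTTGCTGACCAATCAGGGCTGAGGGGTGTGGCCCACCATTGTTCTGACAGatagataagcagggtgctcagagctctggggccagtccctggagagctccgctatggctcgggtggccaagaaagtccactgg
Cypt3: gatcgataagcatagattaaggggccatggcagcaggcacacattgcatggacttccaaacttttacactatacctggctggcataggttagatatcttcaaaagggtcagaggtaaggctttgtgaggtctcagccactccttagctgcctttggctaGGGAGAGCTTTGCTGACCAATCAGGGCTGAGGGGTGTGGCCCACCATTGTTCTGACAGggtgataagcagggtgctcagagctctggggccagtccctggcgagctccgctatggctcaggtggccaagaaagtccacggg
Cypt4: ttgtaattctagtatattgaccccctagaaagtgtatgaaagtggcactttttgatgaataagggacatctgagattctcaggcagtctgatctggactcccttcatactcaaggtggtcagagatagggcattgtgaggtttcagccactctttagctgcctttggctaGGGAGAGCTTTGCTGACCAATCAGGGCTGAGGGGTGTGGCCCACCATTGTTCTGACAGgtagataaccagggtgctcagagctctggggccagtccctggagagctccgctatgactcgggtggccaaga

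**Figure D4:**
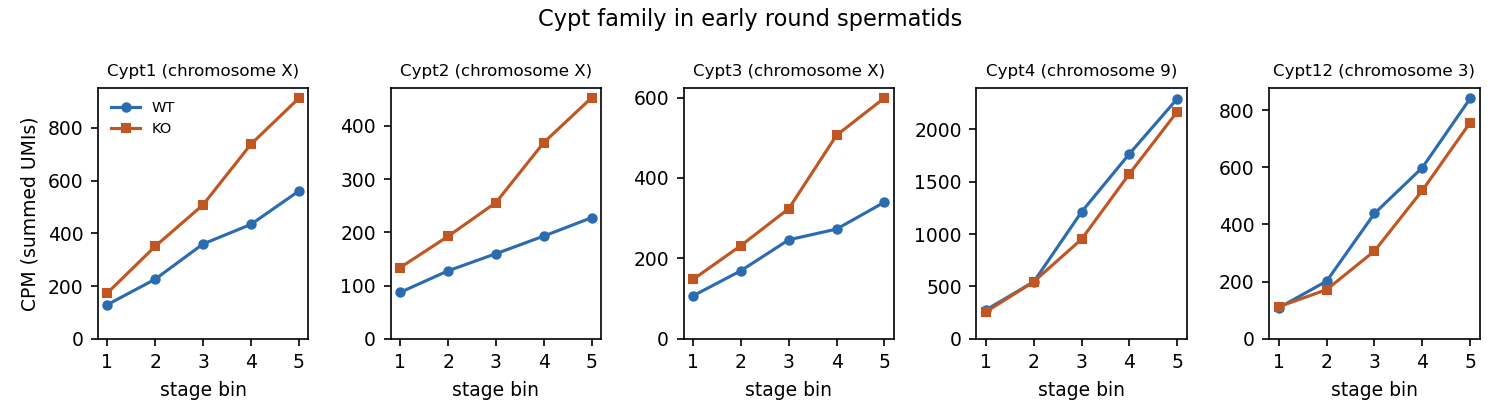
Level of 5 Cypt genes in CPM of the summed UMIs over the 5 bins of stage position of the early round spermatids, in WT (circles) and KO (squares). The X-linked Cypt1, Cypt2 and Cypt3 are higher in KO in each bin, reaching 912, 453 and 599 CPM in the last bin against 560, 227 and 340 CPM in WT, while Cypt4 and Cypt12 end lower in KO.

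A second group of genes past the criterion lay together on chromosome 14. It held 9 of the 61 genes that were higher in KO, of 215 tested on that chromosome, and 7 of them lay between 41484232 and 44492463, where 9 of 9 tested genes were higher with a median log2 ratio of 0.59. The ends of that stretch were set by genes past the criterion, after their values were seen, so its counts are a description. The other 206 genes of the chromosome had a median of 0.00 (-0.0043). BC061237, used in the rule, and 1700001F09Rik were among the 7. 1700001F09Rik, an uncharacterised gene that the study named as a marker of this stage, went from 7355 to 9082 UMIs, a log2 ratio of 0.48 (0.44 to 0.53). The others were Gm3486 (0.59), Gm3543 (1.02), Gm3573 (1.19), Gm10376 (0.82) and Gm47189 (0.83), gene models of a multicopy region whose reads may be shared among copies.

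Aldh1l1, which encodes a folate enzyme, 10-formyltetrahydrofolate dehydrogenase, went from 18 to 759 UMIs, a log2 ratio of 5.58 (4.91 to 6.34), and from 2.20% to 49.6% of members. In set B it had 0 CPM in WT and 73.6 CPM in KO, and in set D 2.13 and 59.4 CPM. Cells with both Leydig genes held it at 101 and 152 CPM; the part of free RNA in its ratio was not tested. Nmnat3, which makes NAD in mitochondria, went from 756 to 3299 UMIs (2.30, 2.19 to 2.42), and from 52.7% to 91.0% of members. Vmn1r181, a vomeronasal receptor gene, went from 164 to 820 UMIs (2.501, 2.26 to 2.75). Gm7853, an unprocessed pseudogene on chromosome 14, had 0 UMIs in WT and 233 in KO, at least 87.9-fold higher with 3 counts over the WT members as the limit; its reads may belong to a parent gene.

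Ptgds, a prostaglandin D synthase and one of the 10 Leydig markers, went from 21 to 416 UMIs. It stood at 24918 CPM in KO cells with both Leydig genes, against 40.9 CPM in the KO members. All 10 Leydig markers were detected in the members of both libraries, summing to 9.82 CPM in WT and 96.6 CPM in KO, with a 5th to 95th percentile per cell of 0 to 1 UMI in WT and 0 to 5 in KO. That is 0.0184% and 0.132% of their level in cells with both Leydig genes. One filter gene was detected in 82 WT members (11.3%) and 163 KO members (23.4%).

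On the lower side, Fbxl5, an iron-sensing subunit of a ubiquitin ligase, went from 737 to 174 UMIs, a log2 ratio of -1.90 (-2.15 to -1.66). Art1, an ADP-ribosyltransferase, went from 458 to 86 UMIs (-2.23, -2.58 to -1.90). Fxyd2, a subunit of the sodium pump, went from 416 to 77 UMIs (-2.26, -2.63 to -1.90) but did not reach the size criterion. Ubb, a polyubiquitin gene and among the 10 genes with most UMIs, went from 55598 to 37384 UMIs, from 4832 to 3678 CPM (-0.39). 1810065E05Rik had the lowest ratio, from 284 to 24 UMIs (-3.39, -4.05 to -2.78). It did not reach the size criterion, which a gene at so low a level can miss whatever its ratio. The noncoding 1700063D05Rik, from 328 to 33 UMIs (-3.13), and 4930590H14Rik, from 605 to 94 UMIs (-2.51), came next.

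**Figure D5:**
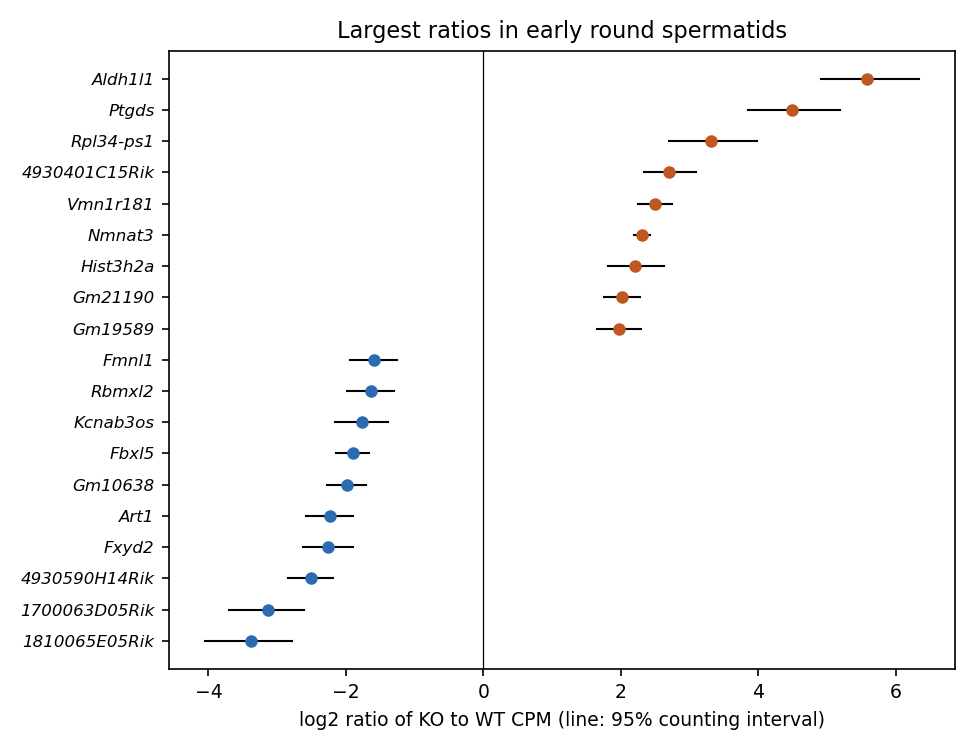
Log2 ratio of KO to WT CPM for the 19 genes with the largest ratios and at least 1 UMI in WT (points), with 95% counting intervals (lines). Aldh1l1 stands highest at 5.58 and 1810065E05Rik lowest at -3.39.

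The mRNAs of protamines and transition proteins, which package the condensing sperm nucleus, were lower in KO. Prm1 went from 3532 to 1552 CPM (log2 ratio -1.19), Prm2 from 1355 to 569 CPM (-1.25), Prm3 from 495 to 284 CPM (-0.80), Tnp1 from 414 to 247.5 CPM (-0.74) and Tnp2 from 468 to 296 CPM (-0.66), all past the criterion. They were the 5 genes past the criterion, all lower, among 16 tested of the list of protamines, transition proteins and histone variants, whose median was -0.19. Cells with both Leydig genes, which do not transcribe Prm1, held it at 14772 CPM in WT and 6999 CPM in KO, above the level in the members of the same library. Prm2, Tnp1 and Tnp2 were also higher in those cells, and Prm3 was in WT (573 CPM) but not in KO (204 CPM). The part of free RNA in the ratios was not tested. Prm3 also rose over the position bins, from 182 to 824 CPM in WT and from 124 to 501 CPM in KO. With no filter gene allowed, the Prm1 ratio was -0.47 and that of Tnp2 turned to 0.034. Of the 10 condensing spermatid markers, which include 4 of these 5 genes, 7 were tested; 6 were lower in KO, 5 of them past the criterion, with a median of -0.66; their sum was 9019 CPM in WT and 5206 CPM in KO.

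The acrosome list covers the organelle that these cells are building. Of 32 genes tested (of 38 on the list), 22 were lower in KO, 10 higher, and 1, the X-linked Cylc1, passed the criterion as higher; the median was -0.07. Spink2, an acrosomal protease inhibitor, had 3764 CPM in WT and 3875 in KO (0.04), and Zpbp2, a zona pellucida binding protein, had 1170 and 1132 CPM (-0.05). Acrv1 had 633 and 583 CPM (-0.12). The set D genes Acrv1, Spaca1 and Lyzl1 are on this list and helped sort the cells, so their levels are tied to the rule. The 10 testis serine proteases tested had a median of -0.20 with 9 lower and 0 past the criterion, among them Prss39 with 509 and 470.5 CPM. They include Prss46, a set C gene that chose the members, and the list also holds Prss51 and Prss58 of set G. The 23 ADAM sperm surface proteins and chaperones tested had a median of 0.01 and 0 past the criterion. Some lists below also hold genes that sorted the cells. These are Pabpc6, Piwil1 and Tdrd5 (RNA storage), Ccna1 (meiotic division), and Spem1, Tssk2 and Tssk6 (sheath and fibre). The early spermatocyte list holds the filter genes Prdm9 and Rad51ap2.

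Of 19 transcription regulators tested 13 were lower and 0 passed the criterion, with a median of -0.08. Crem, whose product drives postmeiotic transcription, had 727.5 and 676 CPM (-0.11), and Tbpl1, a TATA-binding protein relative needed in spermatids, had 1039 and 1142 CPM (0.14). Of 23 RNA storage and poly(A) binding genes tested 0 passed, with a median of 0.06: Pabpc1 had 3832 and 3791 CPM, and Ybx1 1296 and 1274 CPM. Of the 9 m6A genes tested 0 passed, with a median of -0.03. Ythdc1, the nuclear m6A reader, had 77.6 and 62.8 CPM (-0.31), and Hnrnpa2b1 60.2 and 75.9 CPM (0.33). With 1.12% and 0.664% of all tested genes past the criterion, counts of 0 in lists of this size are near the background.

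Of 14 meiotic prophase genes tested 11 were higher and 2 passed the criterion, with a median of 0.15. Sycp3, of the synaptonemal complex, went from 52.1 to 95.5 CPM (log2 ratio 0.88, 0.73 to 1.02), and Sycp1, of the same complex, from 178 to 280 CPM (0.66, 0.57 to 0.74). Sycp3 fell over the bins, from 100.1 to 26.1 CPM in WT and from 173 to 48.2 CPM in KO, and with equal weight for the bins its ratio was 0.81. In set B it had 228 and 310 CPM. Of 19 genes of meiotic division tested 15 were higher and 0 passed, with a median of 0.11, which was 0.07 with equal bins: Ccnb1 had 232 and 243 CPM, and Ccnb2 339 and 326 CPM.

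Of 59 axoneme genes tested 0 passed, with a median of -0.01, and of 29 intraflagellar transport and manchette genes 0 passed, with a median of 0.05 (Ift74 704 and 749 CPM). Of 19 fibrous sheath and outer dense fibre genes tested 14 were lower, with a median of -0.12, and 1 passed as lower: Oaz3, an antizyme of late spermatids, went from 317 to 208 CPM (-0.61). Smcp, of the mitochondrial capsule, went from 2759 to 2182 CPM (-0.34) without passing. Oaz3 and Smcp are among the condensing spermatid markers above, and the part of free RNA in their ratios was not tested. Of 18 glycolysis genes tested 13 were lower, with a median of -0.05, and 1 passed as higher, the glucose transporter gene Slc2a3, from 40.2 to 82.6 CPM (1.04, 0.87 to 1.21). It had 346 and 375 CPM in set B. Of 8 apoptosis genes tested 0 passed, with a median of 0.17, and the 1 gene tested of the dissociation stress list, the chaperone gene Dnajb1, had 415 and 418 CPM. The 4 early spermatocyte genes tested had a median of 0.39 and 0 past the criterion. Of the 14 genes that the study named, 11 were tested, with 1 higher (1700001F09Rik) and 2 lower (Prm2 and Tnp1) by the criterion; that list was drawn from these libraries and is no independent evidence. Spata46 in it had 1080 and 923 CPM, and Lhb had 23.2 and 18.5 CPM; it was detected in 28.1% of WT and 21.5% of KO members, but in 9.22% and 9.16% with cells thinned to 5000 UMIs, against 1.04% and 0.173% of cells with both Leydig genes.

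Mitochondrially encoded RNA made up 0.670% of UMIs in WT members and 1.11% in KO members. The 2 ribosomal RNAs made up most of it: mt-Rnr2 went from 2900 to 5830 CPM (1.01) and mt-Rnr1 from 1260 to 2579 CPM (1.03). mt-Co1 also passed the criterion (0.62), but 6 of the 9 mitochondrial genes tested were lower, with a median of -0.21. Cells with both Leydig genes had 6.58% and 7.50%. Of 74 ribosomal protein genes tested 62 were higher with a median of 0.10, and 2 passed as lower.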

How the data were processed

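The deposited UMI count tables, 1 per library, were made by the authors from their single-cell libraries. Their processing notes name featureCounts (1.6.2) and STAR (2.5.3a), and the methods name a GRCh38 reference although the tables hold mouse symbols. Each table held whole counts for the genes with at least 1 UMI (32162 in WT, 34994 in KO), and a gene found in 1 table was set to 0 in the other. Totals were 80283221 UMIs over 5756 WT barcodes and 82056760 over 7012 KO barcodes. From these, members, CPM of summed UMIs, log2 ratios with exact conditional Poisson intervals, and shares were computed in Python 3.11.15 (numpy 2.4.6, scipy 1.17.1, scanpy 1.11.5 for Scrublet). A group at 0 was set to 3 counts. Positions came from GENCODE vM21 (GRCm38) by symbol, for 35502 of 36547 symbols. Cells of 1 library are not replicates, so no test was run. The steps were tested on simulated data.

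Named genes were the 3 set C genes, the genes the study named, the 2 of each list with most UMIs and up to 4 past the criterion, the 10 largest ratios each way with at least 100 UMIs, 15 leading genes, the 10 with most UMIs, 5 of each sex chromosome, and 10 that rose and 10 that fell over the bins. Further X-linked genes past the criterion, the chromosome 14 genes and the Cypt and Ssxb families were named after their values were seen. The members, lists and rules were chosen with earlier results of these data known. One gene that the rule names is not reported here.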

Additional observations from a re-analysis of the deposited data

How the results depend on the processing

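The median log2 ratio of the X-linked genes stayed between 0.54 and 0.76 over 13 alternatives, with the highest value where set C was scored without Prss46 (0.76). The log2 ratio of the KO to the WT share of barcodes, -0.34, was -0.52 with no filter gene allowed, -0.084 without Prss46, -0.59 without BC061237 and 0.27 among kept barcodes, so the share has no fixed direction. The KO minus WT difference in median stage position, -0.10, was -0.27 without BC061237 and lay between that and -0.0095 (without Prss46) otherwise. Leaving out BC061237 also gave 65 genes lower in KO in place of 36. A CPM ratio of at least 1.5 in place of the log difference gave 212 genes higher and 146 lower. The ratio of Tnp2 turned to 0.034 with no filter gene allowed. Of 3391 recomputed values of named genes 581 lay outside the main value's counting interval. Over all 3391 values the sign changed in 156, in 69 of 267 genes. Only 1 of these changes, that of Tnp2, was in a gene past the criterion. Of 284 recomputed list medians 23 changed sign, in 11 of 22 lists (acrosome, ADAM, axoneme, glycolysis, m6A, meiotic division, sheath and fibre, transcription, mitochondrial, study-named and autosomal genes), so their medians have no fixed direction. The settings that allowed under 3 filter genes, or kept the members low in condensing spermatid markers or without Leydig UMIs, were chosen after seeing the data. No paired analysis was possible because each genotype has 1 library, and no library could be left out. The spread between animals was not measured, and in genes with few UMIs the interval limits what could be seen.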
